A study of Mus musculus with 4 samples.

Results

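Notch signalling was followed through 10 of its genes, the receptors Notch1, Notch2 and Notch3, the ligands Dll1, Dll3, Jag1 and Jag2, and the target genes Hes1, Hes5 and Hey1. They were picked out by symbol from the 19465 genes counted in coronal sections of the embryonic mouse head, and each symbol matched 1 gene. The assay was Visium on tissue fixed in formalin and embedded in paraffin, which counts transcripts of listed genes on an array of barcoded spots. Each unique molecular identifier (UMI) stands for 1 counted molecule. The heads were wild-type and of the C57BL/6J strain, taken at embryonic day (E) 14.5 or E15.5 as whole heads, with no treatment. Each stage had 2 capture areas, each of them 1 library. The replicate 1 area held 1 section, and the other area held replicates 2, 3 and 4 as 3 sections that share its library.

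The 4 areas are given below always in the same order, which is E14.5 replicate 1, E14.5 replicates 2,3,4, E15.5 replicate 1 and E15.5 replicates 2,3,4. They held 1106, 2310, 989 and 1952 tissue spots, 6357 in all, and 15438992, 109127953, 67344393 and 89128289 UMIs. The median spot held 6752 UMIs in the E14.5 replicate 1 area, against 45058.5, 64051 and 45471.5 in the other areas, so low values rest on the fewest molecules there. Within the E14.5 replicates 2,3,4 area, 1 of the 3 sections was shallow as well, with a median of 10037.5 UMIs per spot against 65616 and 59411 in the other sections. Levels are in CPM, a gene's UMIs per 1000000 UMIs of the same spots, and they compare 1 gene between places or stages, not different genes with each other. A spot can hold several cells of different types, so a lower level can mean fewer cells of a type or less RNA per cell, and these cannot be told apart here.

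Notch receptors are cleaved when a Delta or Jagged ligand on a neighbouring cell binds them, and the freed intracellular part joins the DNA-binding protein Rbpj to switch on genes such as Hes1, Hes5 and Hey1. The Hes and Hey proteins are repressors of proneural genes, and in the developing brain and retina the pathway is known for keeping neighbouring progenitors from differentiating at the same time. The same receptors and ligands also act in stratifying epithelium, in blood vessel walls and in forming bone and cartilage.

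The sequence just before the start of 2 of these genes is shown because Hes5 and Dll1 lie on opposite sides of this circuit, a target read out by Rbpj and a ligand driven by proneural factors, and were high in the same tissue. Sequences of 250 bases before an annotated start, from RefSeq on GRCm38.p6, were at hand for 8 of the 10 genes in 9 windows. Capitals mark the letters searched for on both strands, TGGGAA (the core bound by Rbpj) in Hes5 and CAGCTG (an E-box of the kind bound by proneural factors) in Dll1. The Hes5 window is chr4:154960673-154960922 on the plus strand, and the Dll1 window, before the more distant of its starts, is chr17:15376933-15377182 on the minus strand.
Hes5: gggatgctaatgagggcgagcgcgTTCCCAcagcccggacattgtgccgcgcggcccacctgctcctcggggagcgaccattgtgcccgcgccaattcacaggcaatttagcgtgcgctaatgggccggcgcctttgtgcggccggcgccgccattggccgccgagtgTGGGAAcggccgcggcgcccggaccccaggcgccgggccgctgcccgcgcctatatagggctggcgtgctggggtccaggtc
Dll1: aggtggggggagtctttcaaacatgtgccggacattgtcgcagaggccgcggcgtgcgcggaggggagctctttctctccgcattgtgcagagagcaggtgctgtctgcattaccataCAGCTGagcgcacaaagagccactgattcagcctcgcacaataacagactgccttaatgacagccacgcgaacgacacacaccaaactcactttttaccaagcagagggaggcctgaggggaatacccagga

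Hes5 held TGGGAA in 2 places, in opposite orientation, whose first bases lie 226 and 82 bases before the start. The share of all 32851 windows of this length with at least 1 match was 21.6%, and 2.77% held 2 or more. None of the other members with a window held that core, and the targets Hes1 and Hey1, which had no window, were not searched. The E-box CAGCTG was found in 1 place each in the Dll1, Dll3 and Jag1 windows, 132, 7 and 82 bases before the start, against 13% of all windows, and the window of the other Dll1 start had none. The letters CACNAG, an N-box of the kind bound by Hes proteins, were present in 1 place in Notch1 and in Notch2 and in 2 places in Notch3, against 36.7% of all windows with at least 1. No match overlapped a match to other letters. The windows of Dll3, Jag1, Notch1 and Notch2 lay wholly or partly within the GENCODE span of their own gene. Those of Hes5, Notch3 and the more distant Dll1 start lay outside it. A match of this kind is a description of the letters and no evidence of binding.

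To place the genes in the head, the spots were grouped into 16 regions by k-means clustering from which the 10 members and 44 further genes of the pathway had been left out. Each region is called by its 2 leading genes, and 13 of the 16 regions had at least 20 spots in every area. Marker lists were ranked by the mean log2 level of their genes in a region relative to all spots. The Mt3/Mlc1 region (420 spots) was highest of all regions in the lists of neural progenitor and of neurogenic markers. The neurogenic list had a summed level of 1666 CPM there against 398 CPM over all spots. For the neural progenitor list the sums lay closer, 2621 CPM against 2084 CPM over all spots and 2532 CPM in Dpt/Cma1. The neuron list was highest in the Ecel1/Tmem130 region (7413 CPM against 1993 CPM) and next highest in the Neurod2/Neurod6 region (6253 CPM). The Sncg/Atoh7 region led the retina list (1419.8 CPM against 127 CPM). The Krtdap/Krt1 region led the suprabasal epithelium list and the Krt17/Sostdc1 region the basal epithelium list. Krtdap/Krt1 came next on the basal list, at 3063 CPM against 3641 CPM in Krt17/Sostdc1 and 946 CPM over all spots. Krt17/Sostdc1 also led the tooth list (452 CPM against 104 CPM) and the palatal mesenchyme list (915 CPM against 321 CPM). The Gfy/Ugt2a1 region led the olfactory epithelium list by rank, although the summed level of that list was 1325 CPM there against 2116 CPM in Ecel1/Tmem130 and 1782 CPM in Sncg/Atoh7. The Matn1/Col9a1 region led the cartilage list, the Ibsp/Spp1 region the bone list and the Myh8/Mylpf region the muscle list. Where a region is called germinal, neuronal, retinal, olfactory, epithelial or bone below, this refers only to the list it led or, for Neurod2/Neurod6, the neuron list on which it came next. Regions were formed from the same spots, so differences between them are described without a test, with the spread over the 4 areas. Choroid plexus markers were also highest in the Mt3/Mlc1 region (7667 CPM against 838 CPM), which held 44 spots of the E14.5 replicates 2,3,4 area that clustered apart under Ttr and Folr1 when 24 clusters were made. Their part in the levels of that region was not tested.

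**Figure D1:**
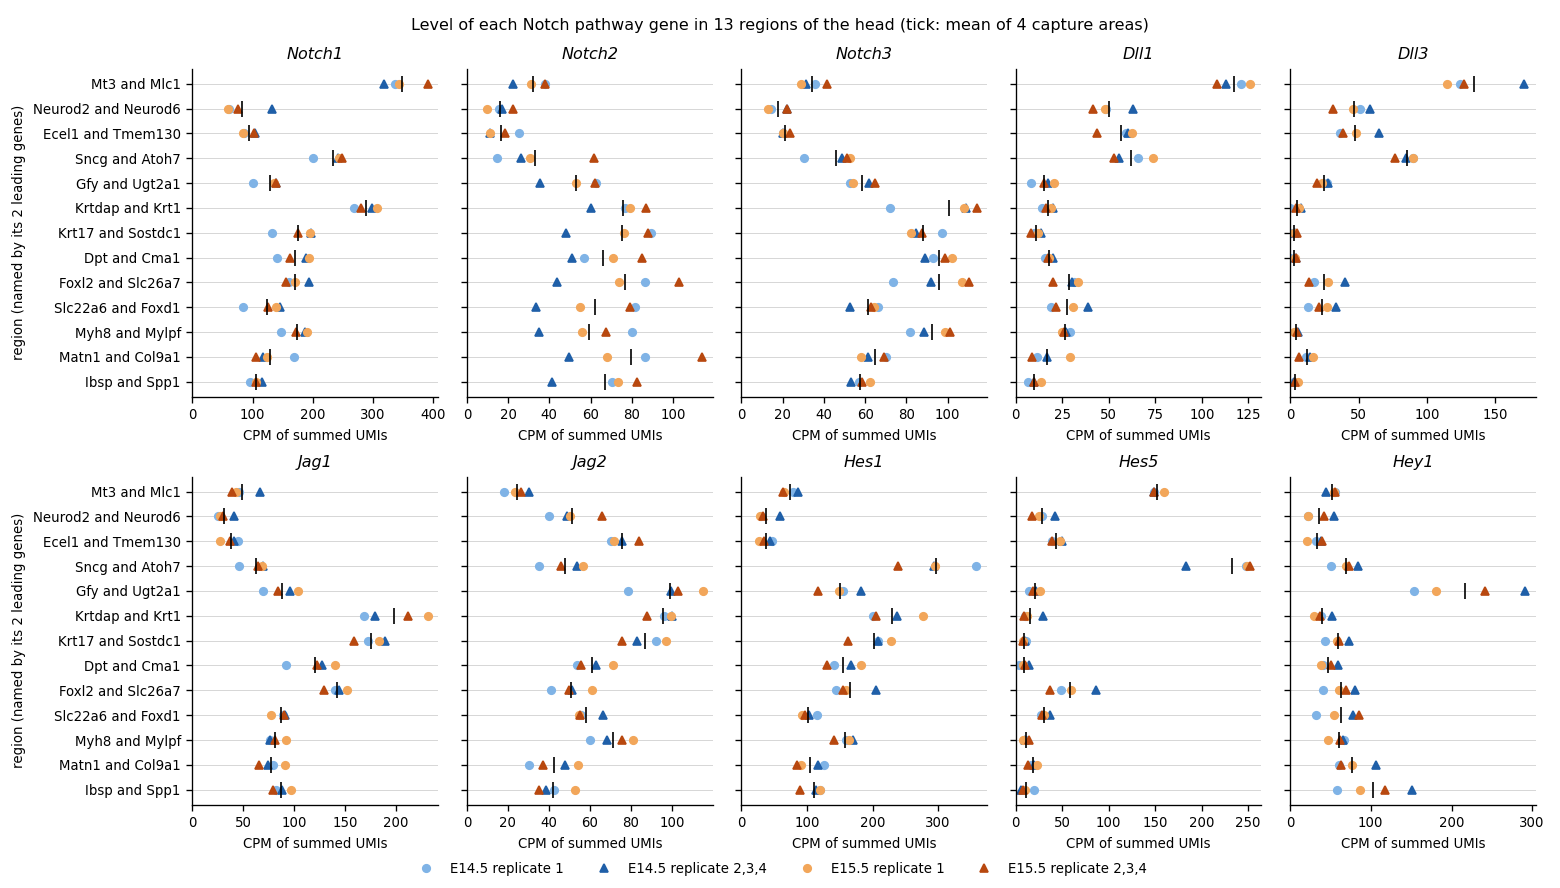
Level of each of the 10 genes (horizontal axis, CPM of summed UMIs, a scale of its own for each gene) in the 13 regions (rows, named by 2 leading genes), with 1 point per capture area and a tick for the mean of the 4 areas. Notch1, Dll1 and Dll3 stand highest in the Mt3/Mlc1 row, Hes1 and Hes5 in the Sncg/Atoh7 row, Jag2 and Hey1 in the Gfy/Ugt2a1 row, and Notch3 and Jag1 in the Krtdap/Krt1 row.

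Of the receptors, Notch1 was highest in the germinal region of the brain. Notch1 (chr2:26457903-26516663, minus strand, GRCm38) encodes the receptor best known from neural progenitors and keratinocytes. In the Mt3/Mlc1 region its level was 337, 318, 344 and 392 CPM in the 4 areas. Every one of these lies above every area of every other tested region, and the mean of 348 ± 31.6 CPM (SD, n = 4 areas) was 2.41 ± 0.466 times that of the other spots. The next regions were Krtdap/Krt1 at 288 ± 17.0 CPM and Sncg/Atoh7 at 233 ± 22.0 CPM, and neither range overlapped the region next in order. Notch1 thus stood high in the germinal region, the epithelial Krtdap/Krt1 region and the retinal region. It was lowest in the Neurod2/Neurod6 region, with 61.4, 133, 58.8 and 75.9 CPM in the areas and a mean of 82.3 ± 34.7 CPM, and the Mt3/Mlc1 mean was 4.23 times as high. The E14.5 replicates 2,3,4 area was the high one of the 4.

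Notch2 and Notch3 shared the low neuronal levels of Notch1 but, unlike it, were also low in the germinal and the retinal region. In the Mt3/Mlc1 region Notch2 was at 32.3 ± 7.33 CPM and Notch3 at 34.3 ± 5.56 CPM. Notch2 (chr3:98013527-98150361, plus strand), a receptor that acts in bone and cartilage among other tissues, was highest in the Matn1/Col9a1 region with 86.5, 49.6, 67.8 and 114 CPM in the areas. That range overlapped those of the regions below it, 79.6 ± 27.6 CPM against 76.9 ± 25.2 CPM in Foxl2/Slc26a7, 75.7 ± 11.3 CPM in Krtdap/Krt1 and 75.3 ± 19.0 CPM in Krt17/Sostdc1, so no single highest region can be named for it. Its lowest levels were 16.2 ± 5.10 CPM in Neurod2/Neurod6 and 16.5 ± 6.70 CPM in Ecel1/Tmem130. These neuronal regions were the low end for Notch2 in 3 areas, and in the E14.5 replicate 1 area the Sncg/Atoh7 region was lower, at 14.7 CPM.

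Notch3 (chr17:32120820-32166852, minus strand), the receptor known from smooth muscle cells and pericytes of vessels, had 71.9, 109, 108 and 114 CPM in the Krtdap/Krt1 region, a mean of 101 ± 19.3 CPM. Its order below that was not resolved, with 95.7 ± 16.9 CPM in Foxl2/Slc26a7, 95.6 ± 5.60 CPM in Dpt/Cma1, 92.6 ± 9.05 CPM in Myh8/Mylpf and 87.9 ± 6.60 CPM in Krt17/Sostdc1. All areas of Krt17/Sostdc1 lay above those of the region next in order, Matn1/Col9a1 at 64.6 ± 6.03 CPM. The lowest levels were again neuronal, 17.9 ± 5.01 CPM in Neurod2/Neurod6 and 21.1 ± 1.59 CPM in Ecel1/Tmem130. Spot by spot, the median correlation of Notch3 with the summed mural cell markers over 8 sections was 0.41 (from 0.12 to 0.59), a description of spots that share their section and depth.

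The Delta ligands were concentrated in the Mt3/Mlc1 region. Dll1 (chr17:15367354-15376872, minus strand), a ligand induced by proneural factors in differentiating cells, had 121, 113, 126 and 108 CPM there, in areas that span a narrow range. The mean of 117 ± 8.27 CPM was 4.22 ± 1.05 times that of other spots and overlapped no other region. It was followed by the Sncg/Atoh7 region at 62.0 ± 9.60 CPM, Ecel1/Tmem130 at 56.5 ± 8.56 CPM and Neurod2/Neurod6 at 50.2 ± 9.14 CPM, whose ranges met. Its lowest mean was 10.1 ± 2.93 CPM in the bone region Ibsp/Spp1, the lowest region in 2 of 4 areas. The fold of means from highest to lowest region was 11.6.

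Dll3 (chr7:28293553-28302238, minus strand), a divergent Delta protein that acts mostly inside the cell that makes it, had the widest span of the 10 genes. It reached 124, 171, 115 and 127 CPM in the Mt3/Mlc1 region, where the E14.5 replicates 2,3,4 area was the high one. The mean of 134 ± 24.8 CPM was 6.79 ± 3.49 times that of other spots, and the region held 37.5% of all Dll3 UMIs with 7.86% of all UMIs. The Sncg/Atoh7 region came next with 89.5, 85.0, 89.6 and 76.6 CPM, without overlap on either side. In the Dpt/Cma1 region Dll3 had 0, 4.35, 3.44 and 4.66 CPM, where the 0 of the E14.5 replicate 1 area allows up to 3.80 CPM (exact 95% Poisson interval, counting error only). The mean there was 3.11 ± 2.14 CPM, and the fold between the means of the highest and the lowest region was 43.1. Dpt/Cma1 was the lowest region for Dll3 in 1 of 4 areas. Within each area, every tested region other than Mt3/Mlc1 and Sncg/Atoh7 was below both neuronal regions in Dll3.

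**Figure D2:**
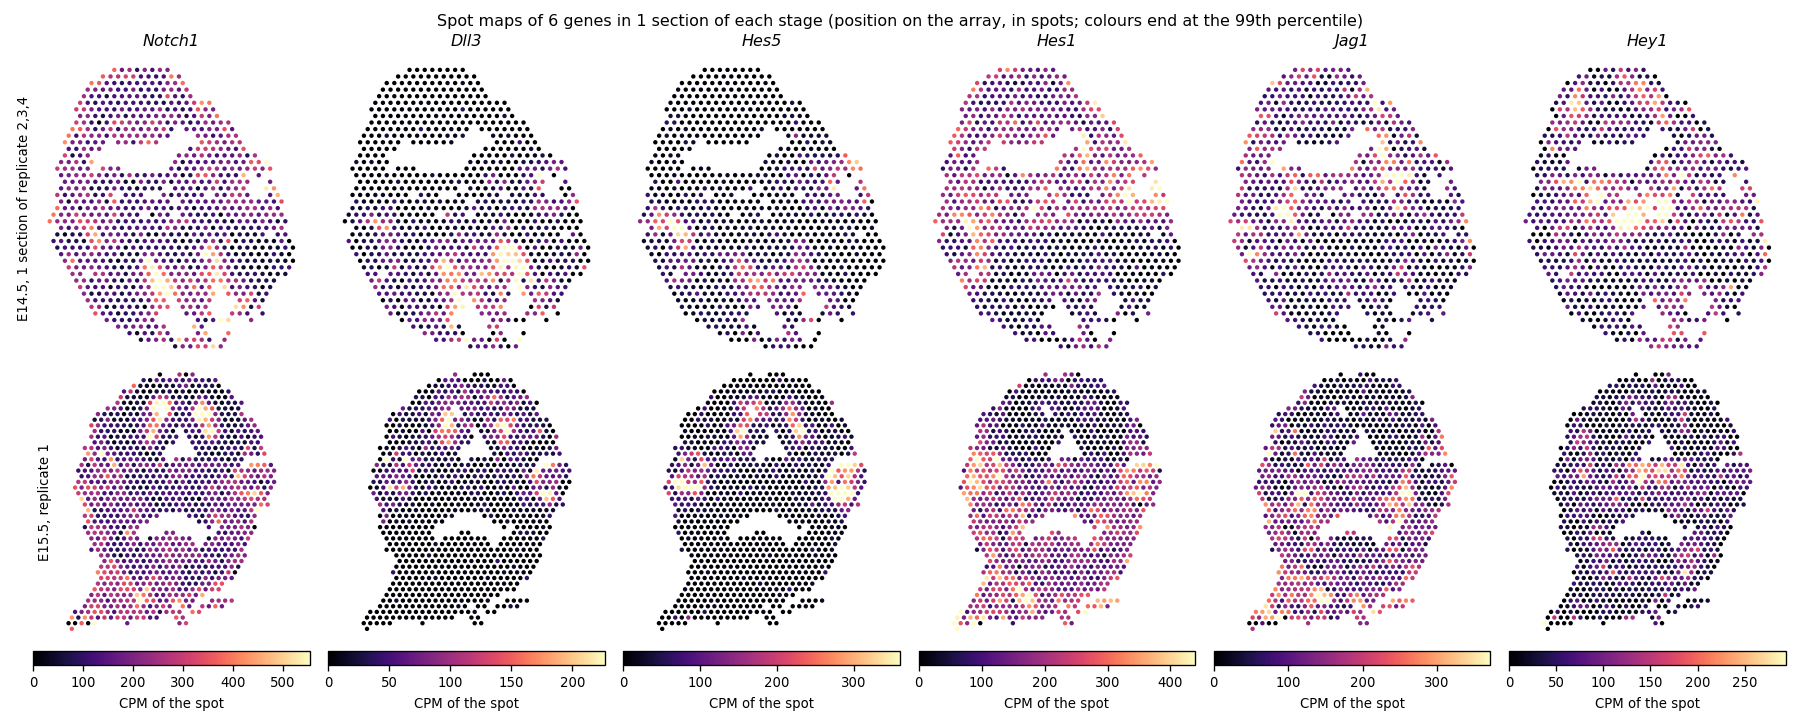
Level per spot (colour, CPM of the spot, ending at the 99th percentile of each gene) of Notch1, Dll3, Hes5, Hes1, Jag1 and Hey1 at its position on the array, in 1 section of the E14.5 replicates 2,3,4 area (top) and the E15.5 replicate 1 section (bottom). Notch1, Dll3 and Hes5 are bright in paired bands of the brain, Hes5 and Hes1 in patches at the sides, and Hey1 in the middle of the section.

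The Jagged ligands were low in the Mt3/Mlc1 region, where the Delta ligands were high. Jag1 (chr2:137081456-137116644, minus strand), a ligand of epithelium, vessels and sensory organs, had 168, 179, 231 and 212 CPM in the Krtdap/Krt1 region and 172, 189, 183 and 159 CPM in Krt17/Sostdc1. These 2 epithelial regions overlapped each other, at 197 ± 29.0 and 176 ± 13 CPM, and the second lay above the region next in order, Foxl2/Slc26a7 at 141 ± 9.18 CPM, in every area. Jag1 was lowest in Neurod2/Neurod6 at 30.9 ± 6.98 CPM and had 48.7 ± 12.3 CPM in Mt3/Mlc1.

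Jag2 (chr12:112907819-112929776, minus strand), a ligand needed for palate closure in mice, reached 78.5, 99.5, 115 and 103 CPM in the olfactory Gfy/Ugt2a1 region. The mean of 99.1 ± 15.3 CPM overlapped Krtdap/Krt1 at 95.8 ± 5.73 CPM and Krt17/Sostdc1 at 87.0 ± 9.56 CPM. Its lowest level was found where Notch1, Dll1 and Dll3 peaked, in the Mt3/Mlc1 region, with 18.3, 30.1, 23.4 and 26.5 CPM. That region was the lowest of the 13 for Jag2 in 4 of 4 areas, at 24.6 ± 4.98 CPM, 4.03-fold below the highest. In the neuronal Ecel1/Tmem130 region Jag2 stood at 75.4 ± 6.11 CPM, in contrast to Jag1 at its low end there.

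Of the target genes, Hes1 and Hes5 shared the retinal region and Hey1 had another place. Hes1 (chr16:30064384-30067796, plus strand), a repressor active in many progenitors, had 358, 293, 295 and 239 CPM in the Sncg/Atoh7 region. At 296 ± 48.7 CPM this was the highest region in every area, although its range met that of Krtdap/Krt1 at 230.4 ± 35.4 CPM, followed by Krt17/Sostdc1 at 202 ± 27.6 CPM. In the Mt3/Mlc1 region Hes1 was at 73.5 ± 10.9 CPM, with only the neuronal regions below it at 37.8 ± 8.63 and 37.6 ± 14.2 CPM. Hes1 was thus low in the brain regions, and within each area it was higher in the germinal than in either neuronal region.

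Hes5 (chr4:154960923-154962371, plus strand), the target most tightly tied to Notch in neural tissue and the carrier of the paired TGGGAA letters printed above, had its high levels in the retinal and the germinal region. It had 248, 183, 249 and 252 CPM in the Sncg/Atoh7 region and 149, 149, 159.8 and 149 CPM in Mt3/Mlc1. The 2 regions, at 233 ± 33.7 and 152 ± 5.44 CPM, did not overlap with each other or with the region below them, Foxl2/Slc26a7 at 58.0 ± 20.9 CPM. They held 22.7% and 27.6% of all Hes5 UMIs. The lowest mean was 8.68 ± 4.57 CPM in Dpt/Cma1, a fold of 26.9 between the means of the highest and the lowest region. Its range overlapped that of Krt17/Sostdc1 at 9.08 ± 1.75 CPM, and Dpt/Cma1 was the lowest region in 1 of 4 areas. The fold between these regions ran from 12.9 to 80.3 over the areas.

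Hey1 (chr3:8663359-8667256, minus strand), a repressor known from vessels and bone, was set apart in the olfactory region. Gfy/Ugt2a1 had 154, 291, 181 and 242 CPM, 3.67 ± 0.174 times the level of other spots in a ratio that hardly varied between areas, and no other region overlapped it. The bone region Ibsp/Spp1 came next with 58.3, 151, 86.5 and 117 CPM. Both E14.5 replicate 1 values were the lowest and both E14.5 replicates 2,3,4 values the highest of their 4. The lowest mean of Hey1 was 33.1 ± 8.42 CPM in Ecel1/Tmem130, the lowest region in 2 of 4 areas.

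In a finer division into 24 clusters, 257 of the 420 spots of the germinal region fell into a cluster led by Gsx2 and Slc18a2 (261 spots), 100 into a cluster led by Eomes and Neurog2 (154 spots, 64.9% of them from the germinal region) and 44 into the Ttr/Folr1 cluster. Of the leading genes, Gsx2 is a marker of ventral and Eomes and Neurog2 are markers of dorsal telencephalic progenitors. Dll3 had 163, 199, 153 and 133 CPM in the Gsx2/Slc18a2 cluster and 81.9, 94.4, 75.4 and 69.6 CPM in the Eomes/Neurog2 cluster, where the last value rests on 17 UMIs. The ranges did not overlap, and neither did those of Hes5, at 159.8 ± 13.5 against 109.8 ± 14.5 CPM. Dll1 differed less, at 121 ± 15.8 against 101 ± 6.42 CPM with overlapping ranges. Hes1 and Hey1 ran the other way. Hes1 had 66.0, 66.1, 42.6 and 56.8 CPM in the Gsx2/Slc18a2 cluster and 78.4, 88.2, 77.0 and 106 CPM in the Eomes/Neurog2 cluster, without overlap. Hey1 had 39.2, 35.0, 46.4 and 53.0 CPM in the Gsx2/Slc18a2 cluster and 64.3, 98.2, 59.1 and 73.7 CPM in the Eomes/Neurog2 cluster, again without overlap, the last values of Hes1 and Hey1 resting on 26 and 18 UMIs in 12 spots. Dll3 and Hes5 were therefore higher in the cluster marked by Gsx2, and Hes1 and Hey1 in the cluster marked by Eomes.

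The study is about the palate, and the same finer division gave a cluster of 524 spots led by Fibin and by Pax9, a transcription factor of palatal and dental mesenchyme. Jag1 had 104, 134, 131 and 123 CPM there, Notch1 had 108, 173, 151 and 148 CPM, Notch3 had 75.8, 79.1, 95.9 and 92.8 CPM, and Hes1 had 114, 164, 163 and 133 CPM. Dll3 had 0, 3.70, 4.40 and 4.12 CPM and Hes5 9.47, 14, 10.4 and 10.2 CPM. Dll3 and Hes5 were thus close to their lowest region means there, while Notch1, Notch3, Jag1 and Hes1 were not. In a cluster led by Krt1 and Krt10, of 133 spots but only 10 and 14 in the E14.5 areas, Jag1 had 242, 238, 253 and 255 CPM and Hes1 had 282, 277, 309 and 245 CPM.

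The level of each gene was next read by distance from the Mt3/Mlc1 region, counted in steps between neighbouring spots. Dll3 went from 134 CPM in the region to 67.0 CPM at 1 step, 43.2 CPM at 2 steps and 17.5 CPM at 3 or more steps as means of the 4 areas, and fell at every step in 4 of 4 areas. Dll1 went from 117 to 64.3, 49.3 and 24.4 CPM and fell at every step in 3 areas. Hes5 dropped more steeply, from 152 to 51.5 CPM within 1 step, and stayed at 33.1 and 36.1 CPM beyond it. Notch1 dropped from 348 to 109 and 79.1 CPM and was at 157 CPM at 3 or more steps, where skin, retina and the rest of the head enter. At 1 step Dll1 kept 43.3% to 71.4% and Dll3 40.5% to 53.9% of its level in the region over the 4 areas, Hes5 27.8% to 47.7% and Notch1 23.3% to 48.1%. In each area the 2 ligands kept a larger share than Hes5 and Notch1.

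The fall from the region to 1 step was shared by 8 members in 4 of 4 areas, also Notch2 (32.3 to 14.9 CPM), Notch3 (34.3 to 16.4 CPM), Jag1 (48.7 to 31.9 CPM) and Hes1 (73.5 to 34.4 CPM), and Hey1 fell in 3 areas. Jag2 rose over the same steps, from 24.6 to 51.1 and 67.3 CPM, and was lower in the region than at 1 step in 4 of 4 areas. Over all spots, 4 members (Notch1, Dll1, Dll3 and Hes5) were higher in the region than at 3 or more steps in every area. With spots of the Mt3/Mlc1, Ecel1/Tmem130 and Neurod2/Neurod6 regions alone, a choice made after the data were seen, this held for 7 members, now with Notch2, Notch3 and Hes1. When the distance was measured from the Eomes/Neurog2 cluster instead, Dll3 fell at every step in 1 area and Dll1 in all 4, with the Gsx2/Slc18a2 cluster then counted as surrounding tissue.

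**Figure D3:**
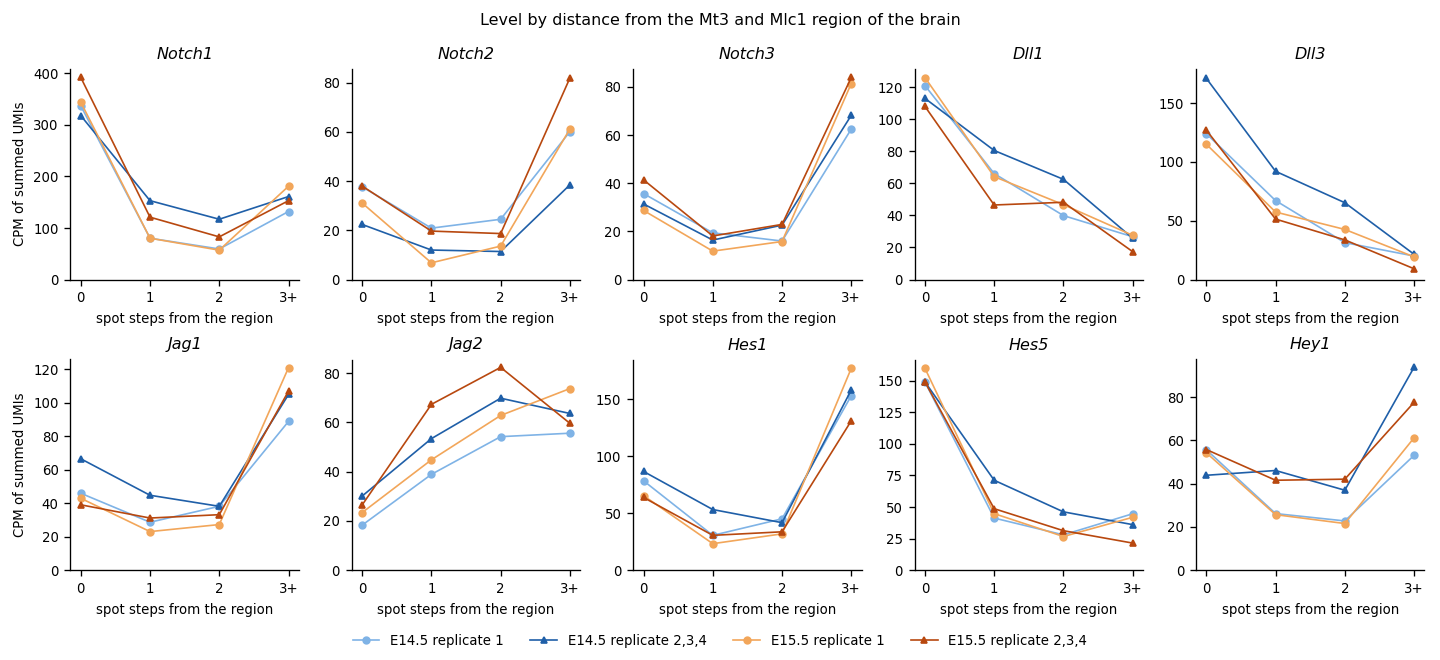
Level of each gene (vertical axis, CPM of summed UMIs, from 0, a scale of its own for each gene) in spots of the Mt3/Mlc1 region (0) and at 1, 2 and 3 or more spot steps from it, with 1 line per capture area. From 0 to 1 step, 8 of the genes fall in all 4 areas, Hey1 falls in 3 and Jag2 rises in all 4.

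From spot to spot, most pairs of members varied together only weakly, and 13 of the 45 pairs had a median correlation of at least 0.2. Over the 45 pairs, the median Pearson correlation of log2(CPM + 100) across the spots of a section was highest for Dll3 and Hes5, 0.50 over 8 sections (from 0.21 to 0.68). Dll1 with Dll3 and Jag1 with Hes1 had 0.34 each, Notch1 with Hes1 and Notch3 with Hes1 0.32 each, Dll1 with Hes5 0.31 and Notch3 with Jag1 0.30. Of other pairs with the same highest region, Notch1 had 0.17 with Dll3 and 0.16 with Dll1, Hes1 had 0.13 with Hes5, and Jag2 had -0.02 with Hey1. The lowest was -0.18 for Notch3 and Dll3. When every spot was thinned to 5000 UMIs the correlation of Dll3 and Hes5 was 0.16, the highest of the 45 at that depth. Thinning also left out 484, 361, 5 and 12 spots in the 4 areas, so depth and the set of spots changed together.

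Summed by region and area, at 52 points from 13 regions that share 4 libraries, the genes fell into 2 sets. Dll1, Dll3 and Hes5 correlated at 0.80 to 0.88 with each other, and Notch2, Notch3 and Jag1 at 0.76 to 0.89. Hes1 correlated at 0.77 with Notch3, 0.76 with Jag1, 0.57 with Notch1 and 0.56 with Notch2, and at -0.06 with Hes5. Correlations between the sets were negative, as low as -0.69 for Notch2 and Dll1. Notch1, Jag2 and Hey1 had no correlation to any other member above 0.57.

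**Figure D4:**
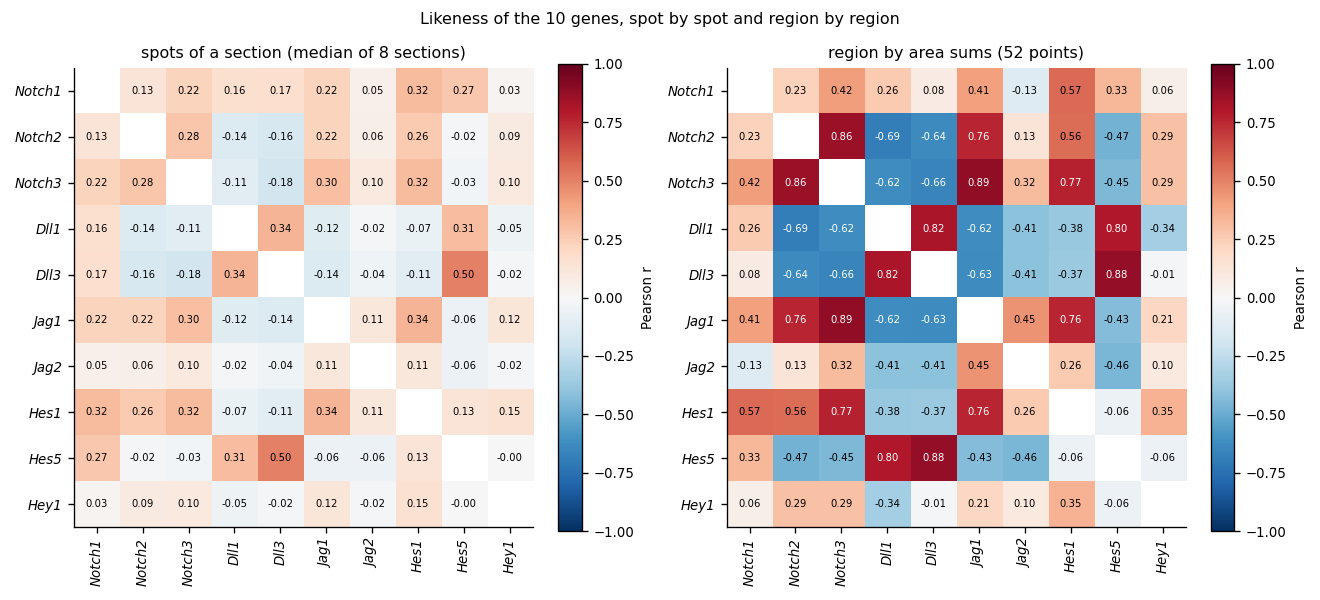
Pearson correlation (colour and printed value) between each of the 10 genes and each other, spot by spot as the median of 8 sections (left) and over 52 region by area sums (right). Dll1, Dll3 and Hes5 form a positive block on the right with 0.80 to 0.88, and Notch2, Notch3 and Jag1 another with 0.76 to 0.89.

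Outside the pathway, each gene's pattern over the same 52 points was compared with 11044 genes of at least 2000 UMIs, and the 3 most alike are named by Pearson correlation of log2(CPM + 1). For Notch1 these were the proliferation genes Hist1h1c (0.87), Mki67 (0.86) and Pkmyt1 (0.86). For Dll3 they were Ckb (0.95), Msi1 (0.95), an RNA-binding protein of neural progenitors, and Myt1 (0.93), a neuronal transcription factor. For Hes5 they were Adgrv1 (0.95), Pax6 (0.93), the transcription factor of eye and cortex, and Crb2 (0.91), a polarity protein of the neuroepithelium. The partners of Dll1 were Pea15a (0.90), Mamld1 (0.90) and Kpna1 (0.89). Jag1 was closest to Sdc1 (0.91), Itgb4 (0.90), the integrin of basal keratinocytes, and Aldh2 (0.90).

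For Jag2 the closest genes were less alike, Hs6st1 (0.79), Jup (0.77), a protein of desmosomes, and Arrdc1 (0.73). Hes1 went with Clic1 (0.92), Heph (0.91) and Prdm1 (0.89), a repressor known from epidermis and photoreceptors. Hey1 went with Myo6 (0.85), Gstm5 (0.84) and Sod1 (0.81). The closest to Notch2 were Ctdsp1 (0.94), Ston1 (0.92) and Sp1 (0.91), and to Notch3 Svil (0.93), Plin3 (0.93) and Nr3c1 (0.92).

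Other genes of the pathway were read from a list of 45, of which 44 were listed in the files. Their highest regions were spread over the head as those of the members were. Lfng, a glycosyltransferase that tunes receptors towards Delta, was highest in Mt3/Mlc1 at 82.0 CPM, while its relative Mfng was highest in Gfy/Ugt2a1 at 179.8 CPM together with Hes6, which promotes neuronal differentiation, at 703 CPM. The non-canonical ligands Dner (614 CPM), Dlk2 (37.8 CPM) and Cntn1 (53.9 CPM) peaked in the neuronal Ecel1/Tmem130 region. Nrarp, a feedback target, was highest in Krtdap/Krt1 at 184 CPM, one of the 2 epithelial regions in which Jag1 was high. Rbpj and the secretase gene Ncstn varied less, with highest regions 1.40 times the median region for Rbpj and 1.28 times for Ncstn, while Dtx4 reached 4.05 times in Sncg/Atoh7 and Dlk1 4.54 times in muscle. Hes3 and Hey2 had 9 and 8 UMIs in all and are not read further.

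Between the stages, no member passed the test over all tissue spots (edgeR quasi-likelihood test on area sums, 2 against 2, Benjamini-Hochberg adjusted p under 0.1 over 15609 genes). The background was the same, since 0 of the 15609 genes were called, 0% (930 at an unadjusted p under 0.05), and DESeq2 called 37 of 16186 genes (0.229%) and no member. Levels of single genes in the rest of this paragraph and in the next are CPM after TMM scaling, which evens out differences in library makeup. Dll3 was at 47.6 and 46.7 CPM in the E14.5 areas and at 29.3 and 12.6 CPM in the E15.5 areas, a log2 difference of -1.17 (SE 0.39, edgeR adjusted p = 0.769). Dll1 was at 51.4 and 42.5 CPM against 37.4 and 19.9 CPM (log2 difference -0.71, SE 0.34, edgeR adjusted p = 0.769), and Hes5 at 62.2 and 54.0 CPM against 49.1 and 24.1 CPM (-0.66, SE 0.35, edgeR adjusted p = 0.769). Without the E15.5 replicate 1 area the test called 78 of 15990 genes (0.488%) and 1 of the 10 members, Dll3 (-1.90, edgeR adjusted p = 0.0955). The lone E15.5 area is then assumed to vary like the E14.5 areas, which alone give the spread. Without the E15.5 replicates 2,3,4 area the log2 differences were smaller, -0.68 for Dll3, -0.32 for Dll1 and -0.23 for Hes5, each with an edgeR adjusted p of 1.0. For Dll1, Dll3 and Hes5 the areas of the stages did not overlap, and the E15.5 replicates 2,3,4 area was the lowest. Of all genes tested, 19.6% were lower at E15.5 without overlap.

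Notch2 was at 46.2 and 35.7 CPM against 52.4 and 76.2 CPM (log2 difference 0.65, SE 0.28, edgeR adjusted p = 0.769), and like Dll3 it had an unadjusted p under 0.05. Notch3 was at 45.9 and 62.1 CPM against 68.8 and 78.1 CPM (0.44, SE 0.25, edgeR adjusted p = 0.769), and Jag1 at 66.3 and 98.9 CPM against 103 and 99.8 CPM (0.29, SE 0.25, edgeR adjusted p = 0.792), the last being 0.03 without the E14.5 replicate 1 area. These 3 genes were the ones higher at E15.5 without overlap, against 20.6% of all genes tested. Over 13 tested alternatives the log2 difference ran from 0.37 to 0.90 for Notch2 and from 0.24 to 0.68 for Notch3. For Jag1 it ran from 0.03 to 0.61. Among these alternatives, the stricter threshold used the main fit and cannot change a difference. Notch1, Jag2, Hes1 and Hey1 overlapped between the stages, with log2 differences of -0.05, 0.20, 0.09 and -0.05 and edgeR adjusted p from 0.847 to 0.975. The median log2 difference was 0.02 over the members and -0.00 over all genes tested. The areas also differed in what they held. The Mt3/Mlc1 region took 5.70%, 9.83%, 6.17% and 3.53% of the spots of the 4 areas, and the 6 neurogenic markers summed to 761, 446, 569.9 and 146 CPM without TMM scaling, with Insm1 the most abundant. On the same unscaled CPM, the 4 retina markers summed to 168, 144, 164 and 70.7 CPM. The 8 mural markers summed to 327, 424, 461 and 576 CPM, in the order of Notch3. The muscle, macrophage, basal epithelium and suprabasal epithelium lists rose over the areas in that same order. The E15.5 replicates 2,3,4 area was lowest in the first 3 of these measures as it was in Dll1, Dll3 and Hes5, while the E15.5 replicate 1 area lay between the E14.5 areas in them. The 5 neuron markers fell without stage overlap, at 3272, 2363, 2170.4 and 1186 unscaled CPM. The 8 neural progenitor markers did not fall in sum, at 1789, 2058, 2192 and 2087 CPM, with Vim the most abundant. That sum hardly separates brain from other tissue, with 2621 CPM in the Mt3/Mlc1 region and 2532 CPM in Dpt/Cma1. The Krtdap/Krt1 region, with the highest means of Notch3 and Jag1, took 2.71%, 2.16%, 9.20% and 6.71% of the spots. The 5 suprabasal epithelium markers summed to 179.7, 335, 714 and 723 CPM. The part of all these measures in the stage differences was not tested.

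The stage values were also taken with each region counted alike. With the 13 regions weighted equally, an alternative chosen after the data were seen and without a test, Dll3 was at 29.1, 40.0, 32.0 and 27.4 CPM, Dll1 at 33.8, 37.4, 39.4 and 29.9 CPM and Hes5 at 48.1, 50.6, 51.3 and 46.4 CPM. The stages then overlapped for all 3, and the log2 ratios were -0.22, -0.04 and -0.01. Notch2 kept a ratio of 0.34 with overlap and Notch3 of 0.15 without, while Hes1, at 145, 153, 145 and 119 CPM, had a ratio of -0.17 without overlap, although its closest areas were both at 145 CPM after rounding. Within the Mt3/Mlc1 region, whose levels by area are given above, the log2 difference was -0.29 (SE 0.26) for Dll3, 0.01 (SE 0.23) for Dll1, 0.06 (SE 0.22) for Hes5 and 0.18 (SE 0.22) for Notch1, each with an edgeR adjusted p of 1.0.

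**Figure D5:**
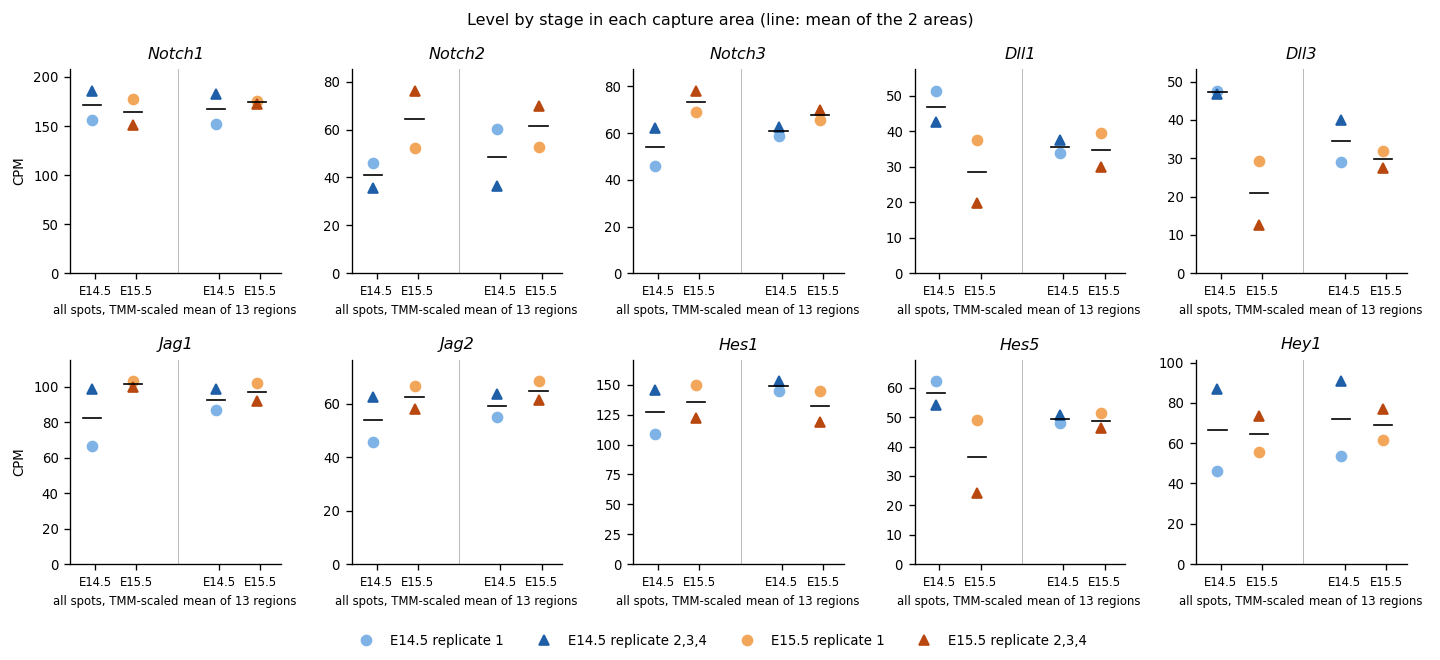
Level of each gene (vertical axis, CPM, from 0) by stage, with 1 point per capture area and a line at the mean of the 2 areas, over all tissue spots after TMM scaling (left of each panel) and as the mean of 13 equally weighted regions without it (right). Dll1, Dll3 and Hes5 are separated by stage on the left and overlap on the right.

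Within regions no member was called in any of 130 member-by-region tests (edgeR, adjusted p under 0.1), and neither was any of 162921 gene-by-region tests, 0% (3016 at an unadjusted p under 0.05), while DESeq2 called 28 of 218761 (0.0128%) and no member. Leaving out 1 area at a time, in the order of the areas, gave 1047 calls of 170211 tests (0.615%), 653 of 163257 (0.400%), 171 of 166359 (0.103%) and 142 of 164226 (0.0865%), none of a member. In each of these fits 1 stage is a lone library, assumed to vary like the areas of the other stage. At an unadjusted p under 0.05 there were 2 of the 130 member tests (1.54%), against 1.85% of all tests. Without the E14.5 replicate 1 area there were 23 (17.7%, against 7.96%), and with each of the other areas left out 5 (3.85%, against 6.32%), 5 (3.85%, against 2.04%) and 0 (0%, against 1.68%). The 2 were Hes5 in Krtdap/Krt1 at -1.26 (SE 0.44, edgeR adjusted p = 1.0), where it rests on 2, 54, 65 and 42 UMIs, and Notch2 in Sncg/Atoh7 at 0.99 (SE 0.42, edgeR adjusted p = 1.0). The log2 difference was positive in 11 of the 13 regions for Notch2 and in 10 for Jag2, and negative in 12 for Hes1 and in 10 each for Dll3 and Hey1, from sums that share 4 libraries. For the other members it was positive in 4 to 9 regions. Whether a gene's stage difference depended on the region was tested over regions that share a library within each area, and 17 of 14200 genes (0.120%) passed (edgeR, 658 at an unadjusted p under 0.05). Leaving out 1 area at a time gave 155 of 14552 (1.07%), 117 of 14399 (0.813%), 16 of 14579 (0.110%) and 64 of 14539 (0.440%), with the same assumption. No member was among any of these, the smallest p being that of Jag1 (0.0112, edgeR adjusted p = 0.587), whose within-region log2 difference ran from -0.46 in Mt3/Mlc1 to 0.33 in Krtdap/Krt1.

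Of the pathway list, 42 genes were tested between the stages over all spots, and 0 passed in either direction by edgeR, none of them at an unadjusted p under 0.05. Their median log2 difference was -0.13, with 5 higher and 12 lower at E15.5 without overlap, against 20.6% and 19.6% of all genes tested and a median of -0.00 over these. The 3 with the smallest p were the glycosyltransferase Mfng (-0.51, SE 0.22), the regulator Dtx1 (-0.88, SE 0.41) and the target Heyl (0.56, SE 0.26), each with an edgeR adjusted p of 0.769. After TMM scaling, Mfng was at 67.1 and 61.8 CPM in the E14.5 areas against 45.4 and 45.3 CPM in the E15.5 areas. On the same scale Dtx1 was at 37.9 and 36.6 CPM against 28.6 and 11.8 CPM, and Heyl at 29.7 and 42.3 CPM against 53.8 and 52.3 CPM. Areas of the stages did not overlap for any of the 3.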

How the data were processed

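Visium gene expression was measured on sections of wild-type heads at E14.5 and E15.5, 2 capture areas per stage. Raw UMI counts of each gene in each spot were deposited with the array positions, and per the file headers these counts came from Space Ranger, version 1.3.1 in both replicate 1 areas and version 2.0.0 in both others, so versions differed within the stages and not between them. The labels name mm10, and the probe set is not given in the sources used here. Gene positions are from GENCODE on GRCm38, matched by identifier. The study describes its spatial experiments as biologically replicated, but which sections came from separate embryos is not given in the sources used here, so p-values measure the spread between areas, which may be partly technical.

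All 6357 tissue spots with counts were used, and 19 barcodes off tissue and 12 tissue spots without counts were left out. Sections were told apart as connected groups of at least 100 spots, and 88 spots in none of them stayed out of the values by section and the spot-by-spot correlations. No doublet caller was run. Regions were made by k-means (16 clusters, 30 principal components of 2000 variable genes, each centred within its area) and named by the 2 genes with the largest fold over the other spots. UMIs were summed by area, or by region and area, and the stages compared with edgeR 4.0.16 (R 4.3.3, quasi-likelihood test, TMM scaling, filterByExpr). P-values were adjusted over all genes tested by Benjamini-Hochberg, and 0.1 was the limit for a call. The pipeline was tested on simulated data. Alternatives were DESeq2 1.42.0, limma 3.58.1 with the area as a random block, other filters, scalings, thresholds and depths, sections as samples, the replicate number as a block, each area left out, and 9 or 24 clusters. All members were named in each comparison, with the 3 pathway genes of smallest p where none passed, and the 3 genes most like each member. The members, marker lists and pathway list were chosen with earlier results of these data known.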

Additional observations from a re-analysis of the deposited data

How the results depend on the processing

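Of the 10 members, 8 had a highest region that held most spots of the original one with 9 clusters and with 24, 7 without centring by area, 9 with spots weighted equally and from 8 to 10 when 1 area was left out. The exceptions were Notch2, Notch3, Jag1 and Jag2, whose highest regions overlapped the next. Over all spots, DESeq2 called 37 genes and leaving out 1 area gave from 0 to 78 genes and from 0 to 1 members. Within regions DESeq2 called 28, 24 clusters gave 11 and leaving out each area in turn 1047, 653, 171 and 142. The stage by region test gave 3 with 9 clusters, 6 with 24, and 155, 117, 16 and 64 with each area left out. The correlation of Dll3 and Hes5 was 0.16 after thinning, and 7 members were higher at 0 than at 3 or more steps with neural regions only. The cause was not tested.

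Some log2 stage differences changed sign. Over all spots Notch1 was 0.01 without TMM and 0.06 with equal regions, Hey1 0.03 without TMM, Hes1 -0.11 with sections as samples, -0.01 with the area as a random block and -0.17 with equal regions, and Jag2 -0.03 with sections as samples. With each area left out, in the order of the areas, the values over all spots were -0.17, 0.08, -0.17 and 0.07 for Notch1, -0.10, 0.32, -0.07 and 0.25 for Hes1 and -0.43, 0.48, 0.14 and -0.25 for Hey1. They were 0.05, 0.01, -0.11 and 0.14 for Dll1 and -0.51, 0.01, -0.22 and -0.34 for Dll3 in Mt3/Mlc1, and -0.55, 0.46, 0.04 and -0.37 for Hey1 in Gfy/Ugt2a1. The difference of Dll3 over all spots kept its direction in 13 of 13 tested alternatives. All of them drew on the same libraries, and the stricter threshold used the main fit, whose direction it cannot change. Replicate numbers are shared between the stages (1, and 2,3,4), and deviations of same-numbered areas correlated at 0.29 over 15609 genes. Same-numbered areas also share the Space Ranger version and the number of sections, and no source used here ties them to a shared embryo, slide or day. With the replicate block 0 genes passed over all spots and Hey1 was 0.01, and within regions 343 passed, none of them a member. The E14.5 replicate 1 area held the fewest UMIs, and with all areas thinned to it 0 genes passed over all spots.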

Other observations

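Of the 16 regions, 3 had fewer than 20 spots in at least 1 area and were not ranked. The region led by the lens crystallins Crygd and Cryga had no spot in the E14.5 replicate 1 area. In the other 3 areas Jag1 had 165, 145 and 127 CPM there, Hes1 192, 205 and 90.0 CPM, Hes5 109, 138 and 68.5 CPM and Notch1 186, 192 and 98.9 CPM. The E15.5 replicates 2,3,4 area was the lowest in all 4 genes. The region led by Deup1, a gene of multiciliated cells, and Reg3g had 11 spots in the E14.5 replicate 1 area, and Dll3 had 0, 7.77, 11.2 and 3.46 CPM there, where the 0 allows up to 33.5 CPM (exact 95% Poisson interval, counting error only). Hes1 had 118, 175, 152 and 137 CPM in that region. The region led by Col6a6 and Fgfbp1 held shallow spots, 186 and 208 of its 405 in the E14.5 areas, and is not read.

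Within the E14.5 replicates 2,3,4 area the shallow section differed from the other 2 in the neural members. Dll3 was at 15.1 CPM there against 52.6 and 43.0 CPM, Dll1 at 25.6 against 40.5 and 42.8 CPM, and Hes5 at 31.8 against 53.7 and 52.7 CPM. In the E15.5 replicates 2,3,4 area the 3 sections had 18.6, 7.0 and 13.5 CPM of Dll3 and 33.9, 13.3 and 28.3 CPM of Hes5.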
